A study of Mus musculus with 6 samples.

Results

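The tripartite motif (TRIM) genes were followed in dendritic cells (DC) sorted from mouse tumors. Members were all genes of the deposited count table whose symbol is Trim followed by a digit and whose estimated counts summed to at least 30 over the 6 libraries. The table holds 23224 gene symbols, 66 of them Trim symbols, and 48 met the minimum. Of the other Trim symbols, 8, Trim38 among them, were listed at 0 in every library and 10 had counts under the minimum. The member nearest to it, Trim9, had a summed count of 31.3, and the closest symbol left out, Trim54, had 25. After the filter on low counts 46 members were tested, and Trim15 and Trim43c were not.

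TRIM proteins carry a RING finger, B-boxes and a coiled coil, and most act as E3 ubiquitin ligases that attach ubiquitin or related modifiers to target proteins. Many end in a SPRY domain that binds the target. A number of the genes are induced by type I interferon, and their products restrict viruses or tune the sensors and adaptors that lead to interferon and NF-kB signalling. In DC, which sense nucleic acids and prime T cells, these signals shape maturation.

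Bulk RNA sequencing was done on DC sorted from pooled tumors of MC57-SIY, a mouse fibrosarcoma line that carries the SIY model antigen, 7 days after injection under the skin of C57BL/6 mice. There were 3 groups with 2 libraries each. CD103+ DC1, the conventional DC known for cross-presentation, and ISG+ DC came from Rag2-/- hosts, which lack mature T and B cells, and a further set of ISG+ DC came from WT hosts. ISG usually stands for interferon-stimulated gene, but the labels give no gate for ISG+ DC, and they give neither the Rag2 allele nor the age or sex of the animals. No untreated tissue was included, and all 3 groups carried the same tumor. Each sample type came from 2 independent experiments, and since tumors were pooled, p-values measure the spread between pools.

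The libraries held between 6023510 and 15368616 estimated counts, and levels are given as CPM, the counts of a gene relative to its library's total, scaled by TMM factors. Rag2 itself stood at 2.59 and 1.88 CPM in CD103+ DC1, 2.52 and 0.146 CPM in Rag2-/- ISG+ DC and 0 in both WT libraries. The deleted part of Rag2 is not given, so these counts do not check the host labels. The 6 DC1 markers (Xcr1, Clec9a, Itgae, Irf8, Batf3, Cadm1) summed to 1815 to 2857 CPM in CD103+ DC1 and to 167 to 255 CPM in the 4 ISG+ DC libraries. The 5 CD11b+ DC markers summed to 107 to 144 CPM in CD103+ DC1 and to 2153 to 2747 CPM in ISG+ DC. Macrophage and monocyte markers, 9 in the table, summed to 132 to 217 CPM in CD103+ DC1, 1265 to 1851 CPM in Rag2-/- ISG+ DC and 3095 to 3387 CPM in WT ISG+ DC. The 4 fibroblast and matrix genes summed to 411 to 958, 613 to 996 and 36.7 to 316 CPM in the same order of groups. T cell, NK cell and neutrophil markers summed to at most 35.6 CPM in any library, and Ms4a1 (B cells), Klrb1c (NK cells) and S100a8 (neutrophils) were at 0 throughout.

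Many of the interferon-linked members lie side by side. On mouse chromosome 7 the order of neighbouring Trim genes is Trim6, Trim34a, Trim5, Trim12a, Trim34b, Trim12c, Trim30b, Trim30c, Trim30a and Trim30d. The deposited counts list neither Trim5 nor Trim30c, so these were not analysed here. RefSeq promoter windows (GRCm38.p6) were matched for 36 members by symbol, with 50 windows of 300 bases, from 250 bases before to 50 after the start site. The core of the interferon-stimulated response element, GAAANNGAAA on either strand with overlapping matches allowed, was found in 9 of the 50 windows (18%), against 3.44% of all 32851 windows in the table. The genes with a match were 8, and 7 of them were among the 13 interferon-linked members that have a window. The core of the gamma-activated site, TTCNNNGAA, was found in 4 of the 50 windows (8%), against 8.3% of all windows. Near copies, such as Trim12a and Trim12c or Trim30a and Trim30d, are counted separately in these shares. A match is a run of letters and no sign of factor binding.

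The 30 bases around the response element core are shown for the 7 interferon-linked members with a match, whose levels are given further on with those of the other interferon-linked members; the core is in capitals, 5′ to 3′ on the gene's strand. Trim12a is at chr7:104315466-104315495, Trim12c at chr7:104353359-104353388, Trim30a at chr7:104465210-104465239, Trim30d at chr7:104507871-104507900 and Trim21 at chr7:102565450-102565479, all on the minus strand. Trim34a is at chr7:104244457-104244486 and Trim26 at chr17:36836976-36837005, both on the plus strand. Trim21 and Trim26 have a further match that overlaps the one shown, and a second Trim30a window has a match at position 3 after its own start site, at chr7:104446104-104446133.
Trim12a: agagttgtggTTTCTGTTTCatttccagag
Trim12c: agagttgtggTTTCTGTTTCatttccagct
Trim30a: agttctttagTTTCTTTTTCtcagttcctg
Trim30d: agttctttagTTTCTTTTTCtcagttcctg
Trim34a: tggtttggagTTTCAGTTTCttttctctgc
Trim21: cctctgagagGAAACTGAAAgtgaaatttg
Trim26: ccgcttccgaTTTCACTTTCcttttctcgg
The Trim30a and Trim30d stretches are the same bases, and the Trim12a and Trim12c stretches share all but their ends. The core began at position 11 after the start site in Trim12a and Trim34a and 14 in Trim21, and at -29 in Trim12c, -36 in Trim30a, -41 in Trim30d and -160 in Trim26. The windows of Trim25, Trim30b, Trim34b, Trim56, Trim6 and Trim69 held no match.

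Per kilobase of exon, with exons joined over all transcripts, the member with the highest mean level over the 6 libraries was Trim30a at 96.8 CPM per kb, followed by Trim25 at 63.8, Trim30d at 62.1, Trim8 at 47.8 and Trim34a at 31.5 CPM per kb. Of these 5 genes, 4 are interferon-linked. All 48 members together summed to 2759 and 2423 CPM in CD103+ DC1, 2741 and 2386 CPM in Rag2-/- ISG+ DC and 2120 and 2375 CPM in WT ISG+ DC. The WT range lay under both others, but only narrowly, at 2375 CPM in its higher library against 2386 CPM in the lower Rag2-/- ISG+ DC library.

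The first comparison set ISG+ DC against CD103+ DC1, both from Rag2-/- hosts, and asks how the populations differ in one host. No TRIM member passed an adjusted p of 0.05 in edgeR's quasi-likelihood test, while 488 of 13223 genes (3.69%) did, 2.83% higher and 0.862% lower in ISG+ DC. Of the 46 members, 2 had an unadjusted p under 0.05 (4.35%), against 14.9% of all genes, and these were Trim25, higher in ISG+ DC as were 8.8% of genes, and Trim35, lower as were 6.11%. DESeq2 called 1 member, Trim34b, against 8.48% of genes. The median log2 fold change was -0.20 over the members and -0.02 over all genes tested. The groups did not overlap for 7 members higher (15.2%, against 23.9% of all genes) and 9 lower (19.6%, against 22%) in ISG+ DC.

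The second comparison set ISG+ DC of WT hosts against those of Rag2-/- hosts, and asks how the same labelled population differs with the host. Again no member passed an adjusted p of 0.05, and 73 of all genes (0.552%) did, 0.287% higher and 0.265% lower in WT hosts. At an unadjusted p under 0.05 there were 8 members (17.4%, against 9.88% of genes). Trim30b, Trim34a, Trim37, Trim30a, Trim59 and Trim56 were lower in WT hosts and Trim25 and Trim62 higher; the share lower was 13% for members and 5.32% for all genes, and 4.56% of all genes were higher. DESeq2 called Trim30b, Trim34a and Trim37 lower, against 4.47% of genes called in either direction. The groups did not overlap for 16 members lower in WT hosts (34.8%, against 23.1% of genes) and 8 higher (17.4%, against 21.4%). The median log2 fold change was -0.08 over the members and -0.03 over all genes. Both comparisons share the Rag2-/- ISG+ DC libraries. The ISG+ DC libraries are numbered 1 and 2 in WT hosts and 2 and 3 in Rag2-/- hosts. Differences between experiments were not separated from those between hosts.

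**Figure D1:**
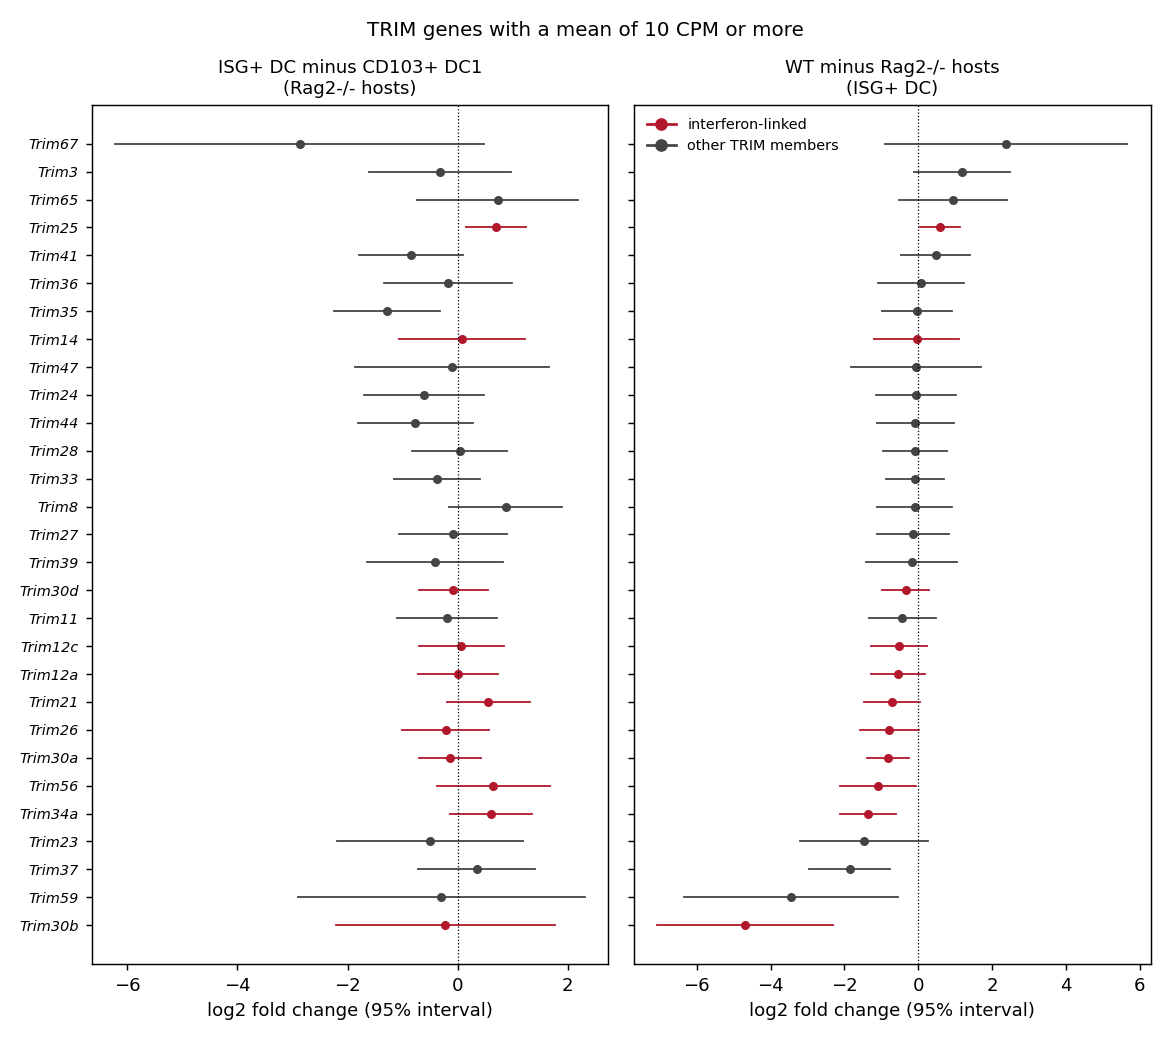
Log2 fold change with its 95% interval (horizontal axes) for the 29 tested members with a mean of at least 10 CPM, ISG+ DC minus CD103+ DC1 on the left and WT minus Rag2-/- hosts on the right; red marks interferon-linked members. On the left 2 intervals exclude 0, and on the right 23 members have values under 0 (lower in WT hosts), with 6 intervals under 0 and 1 over 0. At any level, 29 of all 46 tested members had values under 0 between hosts, as did 6807 of all 13223 genes tested. The share of genes at 10 CPM or more was not computed. In edgeR an unadjusted p under 0.05 was reached by 14.9% of all genes between populations. Between hosts 5.32% of all genes reached it lower in WT and 4.56% higher.

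Of the 14 interferon-linked members, 11 had lower values in WT than in Rag2-/- ISG+ DC, against 6807 of all 13223 genes tested. The exceptions were Trim25, Trim34b and Trim69. The near copies of Trim12, Trim30 and Trim34 are each counted among the 14, so these are not fully separate members. Trim38, also classed as interferon-linked, stood at 0 in every library and is not among them. The median log2 fold change of the 14 was -0.62 between hosts and 0.03 between populations, against -0.03 and -0.02 over all genes. Without Rag2-/- ISG+ DC replicate 2 these medians were -0.41 and -0.16. Between hosts 8 did not overlap and were lower in WT (57.1%, against 23.1% of all genes). Trim25 and Trim69, 2 of the 14, did not overlap and were higher (14.3%, against 21.4%). The estimated counts of Trim69 were only 3 and 0 in Rag2-/- ISG+ DC and 3 and 20 in WT ISG+ DC. At an unadjusted p under 0.05, 4 were lower in WT (28.6%, against 5.32% of all genes). Between populations none of the 14 was lower without overlap, against 22% of all genes, and 5 were higher (35.7%, against 23.9%). None passed the adjusted threshold in edgeR in either comparison. DESeq2 called Trim34b higher between populations, against 8.48% of all genes called. Between hosts it called Trim30b and Trim34a lower in WT, against 4.47% of all genes called.

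Trim25, which in human cells attaches ubiquitin chains to the RNA sensor RIG-I, stood at 245 and 189 CPM in CD103+ DC1, 348 and 357 CPM in Rag2-/- ISG+ DC and 483 and 581 CPM in WT ISG+ DC. No library of one group overlapped another group, and the order was CD103+ DC1, then Rag2-/- and then WT ISG+ DC. Between populations the log2 fold change was 0.70 ± 0.25 (SE, n = 2 and 2; 95% interval 0.15 to 1.25; edgeR adjusted p = 0.195). Between hosts it was 0.59 ± 0.25 (95% interval 0.05 to 1.14; edgeR adjusted p = 0.439). Without CD103+ DC1 replicate 2 the first value was 0.89 with an adjusted p of 0.0105 in edgeR, and with replicate 3 left out instead it was 0.54 (adjusted p = 0.23).

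Trim30a, which in mouse limits NF-kB signalling by lowering TAB2 and TAB3, had 549 and 437 CPM in CD103+ DC1, 512 and 380 CPM in Rag2-/- ISG+ DC and 246 and 262 CPM in WT ISG+ DC. Both WT libraries lay under the 4 others, which overlapped each other. The host difference was -0.81 ± 0.26 on the log2 scale (95% interval -1.38 to -0.25; edgeR adjusted p = 0.248), or 1.76-fold lower in WT. Between populations it was -0.15 (95% interval -0.71 to 0.42).

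Trim30b, a neighbour of Trim30a, had 17.4 and 14.4 CPM in CD103+ DC1, 19.3 and 7.95 CPM in Rag2-/- ISG+ DC and 0.536 and 0.499 CPM in WT ISG+ DC. The WT libraries lay far under the rest. The fitted host difference was -4.69 ± 1.07 on the log2 scale (95% interval -7.06 to -2.31), the smallest p of any member between hosts at 0.00128, with an adjusted p of 0.0889 in edgeR and 0.000171 in DESeq2. Trim30d had 276 and 244, 292 and 199, and 170 and 218 CPM in the same order of groups, and its groups overlapped between hosts. The Trim30 genes are near copies. RSEM divides reads that fit several of them by a model, so the share of each gene is uncertain. The estimated counts of Trim30b were 262 and 84, 305.99 and 109, and 6 and 5. They were nearly all whole numbers, but the part of read division in the Trim30b values was not tested. Summed, Trim30a, Trim30b and Trim30d gave 843 and 696, 824 and 587, and 416 and 481 CPM, nearly all of it from Trim30a and Trim30d. The sum was lowest in both WT libraries, with a log2 difference of -0.65 ± 0.25 from Rag2-/- ISG+ DC (edgeR adjusted p = 0.382).

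Trim34a, from the same stretch of chromosome 7, had 82.9 and 74.2 CPM in CD103+ DC1, 127 and 112 CPM in Rag2-/- ISG+ DC and 55.1 and 38.5 CPM in WT ISG+ DC. The 3 groups did not overlap, with the Rag2-/- ISG+ DC highest and the WT ISG+ DC lowest. The host difference was -1.35 ± 0.34 on the log2 scale (95% interval -2.11 to -0.60; edgeR adjusted p = 0.119, DESeq2 adjusted p = 0.00815). Its near copy Trim34b had no count in CD103+ DC1, which allows up to 0.144 CPM over that group, then 6.05 and 0.0970 CPM in Rag2-/- ISG+ DC and 0 and 29.2 CPM in WT ISG+ DC. Nearly all its count in each ISG+ DC group is in 1 library, and no fold is given for it although DESeq2 called it between populations. Estimated counts of Trim34a and Trim34b were 385.38 and 292.62 in WT ISG+ DC replicate 2 and 2011.94 and 96.06 in Rag2-/- ISG+ DC replicate 2. Reads that fit both copies are divided by the RSEM model, so the share of each gene is uncertain. Summed, Trim34a and Trim34b gave 82.9 and 74.2, 133 and 112, and 55.0 and 67.7 CPM in the same order of groups. The host difference of the sum was -0.998 ± 0.32 on the log2 scale (edgeR adjusted p = 0.26).

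Trim12a and Trim12c, mouse relatives of the primate retrovirus restriction factor TRIM5, are near copies and are given together. Their summed level was 153 and 204 CPM in CD103+ DC1, 206 and 159 CPM in Rag2-/- ISG+ DC and 132 and 121 CPM in WT ISG+ DC. The WT libraries were lowest, and the others overlapped. The host difference of the sum was -0.53 ± 0.28 on the log2 scale (95% interval -1.16 to 0.10; edgeR adjusted p = 0.618).

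Trim56, known for promoting STING signalling, had 41.6 and 24.5 CPM in CD103+ DC1, 46.3 and 57.7 CPM in Rag2-/- ISG+ DC and 26.5 and 22.4 CPM in WT ISG+ DC. Rag2-/- ISG+ DC were highest, and the other groups overlapped. The host difference was -1.09 ± 0.46 on the log2 scale (95% interval -2.12 to -0.06; edgeR adjusted p = 0.462). Trim21, a cytosolic receptor for antibody-bound virus, had 61.4 and 57.6, 94.2 and 80.9, and 56.6 and 50.7 CPM in the order CD103+ DC1, Rag2-/- ISG+ DC and WT ISG+ DC. Its Rag2-/- ISG+ DC libraries were again highest.

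Trim26, a regulator of antiviral signalling, had 94.7 and 88.6 CPM in CD103+ DC1, 96.3 and 61.0 CPM in Rag2-/- ISG+ DC and 44.4 and 47.4 CPM in WT ISG+ DC. Both WT libraries were lowest. Trim14, an adaptor in MAVS signalling, had 55.3 and 32.2, 49.3 and 43.5, and 25.1 and 65.1 CPM, with its lowest and highest libraries both in the WT group. Trim6 stayed under 10 CPM in all libraries, from 0.599 to 9.76 CPM. Trim69 had at most 2.0 CPM and was at 0 in 2 libraries. The groups of Trim6 overlapped in both comparisons.

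**Figure D2:**
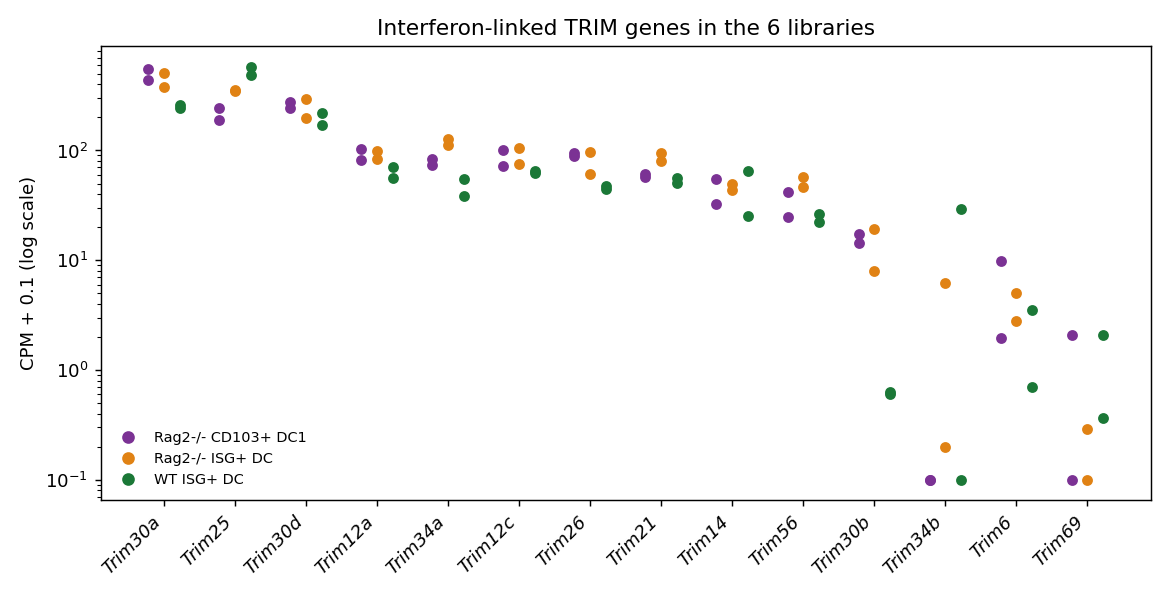
Levels of the 14 interferon-linked members in each of the 6 libraries, as CPM + 0.1 on a log axis, with genes ordered by mean level and colors for the 3 groups; a point at the foot is a library at 0. The points of Trim25 lie in the order CD103+ DC1, Rag2-/- and WT ISG+ DC, while the green WT points of Trim30a, Trim34a, Trim26 and Trim30b lie under the other groups.

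Between populations 5 of 6 DC1 markers were lower in ISG+ DC at the adjusted threshold, against 0.862% of all genes. All 5 CD11b+ DC markers and 7 of 9 tested macrophage and monocyte markers were higher, against 2.83% of all genes. Between hosts, 7 of those 9 were higher in WT at an unadjusted p under 0.05, against 4.56% of all genes. Fcgr1 (-0.32) and Ly6c2 (-1.49) had log2 differences under 0 without overlap. All 4 fibroblast and matrix genes were also lower without overlap, against 23.1% of all genes. The part of these cells in the TRIM values was not tested. In bulk samples fewer cells of a type and less RNA per cell cannot be told apart.

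The regulators of innate signalling, 17 members that were all tested, had a median log2 fold change of -0.30 between populations and -0.09 between hosts, and none passed the adjusted threshold. Trim35, which in human cells promotes the breakdown of IRF7, had 271 and 98.0 CPM in CD103+ DC1, 68.9 and 83.1 CPM in Rag2-/- ISG+ DC and 71.5 and 77.0 CPM in WT ISG+ DC. CD103+ DC1 were higher without overlap, but replicate 2 lay well over replicate 3. The difference between populations was -1.28 ± 0.43 on the log2 scale (95% interval -2.24 to -0.32; edgeR adjusted p = 0.172), and -0.37 (adjusted p = 0.591) without CD103+ DC1 replicate 2. When the other CD103+ DC1 library was left out it was -1.81 with an adjusted p of 9.81e-05 in edgeR.

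Trim8, which promotes NF-kB activation, had 181 and 52.1 CPM in CD103+ DC1, 212 and 217 CPM in Rag2-/- ISG+ DC and 195 and 207 CPM in WT ISG+ DC. The ISG+ DC libraries lay within a narrow range over both CD103+ DC1 libraries, which differed widely from each other. The population difference was 0.87 ± 0.46 on the log2 scale (95% interval -0.15 to 1.89; edgeR adjusted p = 0.422). With CD103+ DC1 replicate 2 left out it was 2.04 (adjusted p = 5.19e-05), and with replicate 3 left out 0.26 (adjusted p = 0.885).

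Trim59, a membrane-bound member that dampens innate signalling in human cells, had 22.3 and 25.2 CPM in CD103+ DC1, 16.1 and 22.5 CPM in Rag2-/- ISG+ DC and 3.49 and 0 CPM in WT ISG+ DC. Both WT libraries were under the rest. The host difference was -3.45 ± 1.31 on the log2 scale (95% interval -6.36 to -0.54; edgeR adjusted p = 0.373). Trim62, a ligase for the fungal-sensing adaptor CARD9, was higher in WT hosts, with 2.93 and 6.34, 1.13 and 3.21, and 20.9 and 9.88 CPM. Its host difference was 2.82 ± 1.19 on the log2 scale (95% interval 0.18 to 5.47; edgeR adjusted p = 0.45).

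Trim65, a ligase for the sensor MDA5, had 6.98 and 12.5 CPM in CD103+ DC1, 15.4 and 16.7 CPM in Rag2-/- ISG+ DC and 20.3 and 41.5 CPM in WT ISG+ DC, in the same group order as Trim25 and without overlap. Trim23, which carries an ARF-like domain, had the reverse order, at 17.2 and 20.0, 14.5 and 11.9, and 5.09 and 4.39 CPM. Trim41, which binds protein kinase C, had 55.1 and 58.4, 35.2 and 27.9, and 54.1 and 33.2 CPM, with Rag2-/- ISG+ DC under CD103+ DC1. None of these differences passed a test adjusted over all genes in either comparison.

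Trim27, a ligase also known as RFP, ranged from 35.1 to 59.9 CPM over the 6 libraries with every group overlapping. Trim39 ranged from 19.3 to 43.4 CPM, Trim32 from 2.20 to 10.3 CPM and the endoplasmic reticulum member Trim13 from 1.06 to 8.18 CPM. Among these 4 genes, Trim32 was the one whose WT libraries lay under both Rag2-/- ISG+ DC libraries. Of the other regulators, Trim44 ranged from 66.8 to 213 CPM, with CD103+ DC1 replicate 3 highest and the rest under 92 CPM, Trim11 from 28.8 to 53.5 CPM with WT ISG+ DC lowest, and Trim47 from 6.78 to 25.9 CPM. Trim7, Trim45 and Trim68 had at most 7.88 CPM.

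**Figure D3:**
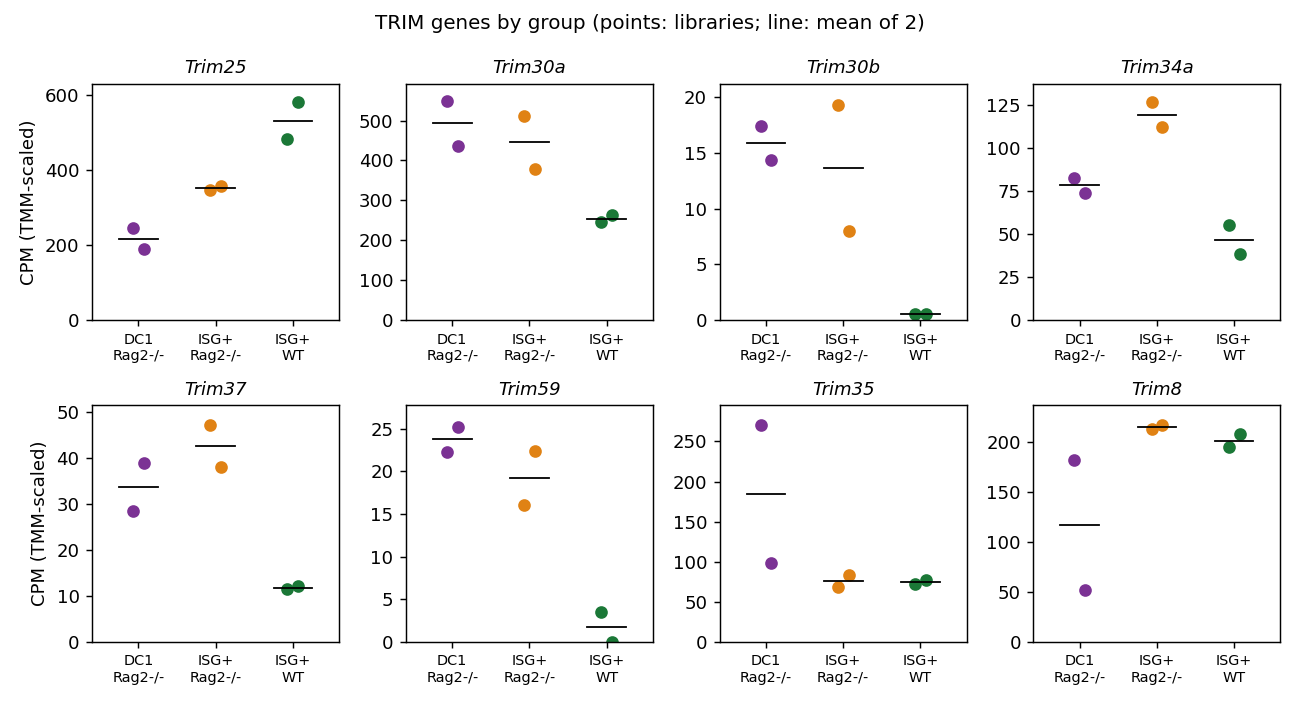
CPM (vertical axes, each from 0) of 8 members in the 3 groups, with a point for each library and a line at the mean of 2. Trim25 is higher in each further group, Trim30a, Trim30b, Trim34a, Trim37 and Trim59 are lowest in WT ISG+ DC, and the CD103+ DC1 points of Trim35 and Trim8 lie far apart.

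The TIF1 members are nuclear cofactors that bind chromatin. Trim28 (KAP1), the corepressor that silences endogenous retroviruses, had 144 and 61.8 CPM in CD103+ DC1, 104 and 108 CPM in Rag2-/- ISG+ DC and 97.7 and 103 CPM in WT ISG+ DC. Trim33, a partner of SMAD proteins, had 77.2 and 90.6, 70.2 and 59.1, and 51.5 and 70.5 CPM. Trim24, a nuclear receptor cofactor, had 49.9 and 41.6, 27.9 and 31.8, and 18.8 and 38.4 CPM. Both CD103+ DC1 libraries of Trim33 and Trim24 lay over the Rag2-/- ISG+ DC libraries, and neither gene passed the test. The median log2 fold change of these 3 members was -0.37 between populations and -0.08 between hosts. Of 11 partners of the TIF1 proteins, such as Setdb1, Cbx5 and Smad4, none passed in either comparison, with medians of -0.14 and -0.12.

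Among the remaining members, Trim37, a centrosomal ligase mutated in human mulibrey nanism, had 28.5 and 38.9 CPM in CD103+ DC1, 47.2 and 38.1 CPM in Rag2-/- ISG+ DC and 11.5 and 12.1 CPM in WT ISG+ DC. Both WT libraries were lowest and close together. The host difference was -1.85 ± 0.49 on the log2 scale (95% interval -2.95 to -0.76), or 3.61-fold lower in WT, with an adjusted p of 0.147 in edgeR and 0.0143 in DESeq2. The 7 members of the NHL and cytoskeletal or neuronal group had a median log2 fold change of -2.09 between populations and 1.18 between hosts, with 0 members at an unadjusted p under 0.05 in both; without CD103+ DC1 replicate 3 the first was 0.57, and without WT ISG+ DC replicate 1 the second was 0.35. Most had few counts: Trim9, Trim46 and Trim71 reached at most 5.65 CPM. Trim67, a relative of the neuronal gene Trim9, had 0.465 and 45.7, 5.23 and 1.04, and 18.7 and 13.9 CPM. CD103+ DC1 held both the lowest and the highest library of Trim67, and the log2 fold change between populations was -2.87, or 2.75 without CD103+ DC1 replicate 3. Trim43b, of a family expressed in early embryos, was between 0.0957 and 13.5 CPM with overlapping CD103+ DC1 and WT groups. Trim36 ranged from 26.4 to 77.8 CPM and Trim3 from 12.0 to 38.5 CPM, with both WT libraries of Trim3 over both Rag2-/- ISG+ DC libraries. Trim2 had at most 7.66 CPM, Trim16 between 0.856 and 22.3 CPM, and Trim15, Trim17, Trim43c and Trim58 at most 4.19 CPM.

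WT ISG+ DC were also set against CD103+ DC1 of Rag2-/- hosts, a contrast in which host and population cannot be told apart and which shares libraries with both others. Here 1209 genes (9.14%) passed, 5.52% higher and 3.62% lower in WT ISG+ DC, and among the 46 members 3 did. At an unadjusted p under 0.05 there were 11 members (23.9%, against 21.9% of genes), and DESeq2 called 8, against 16.1% of genes. The groups did not overlap for 17 members lower (37%, against 25.8% of genes) and 5 higher (10.9%, against 25.7%). Trim25 was higher by 1.29 ± 0.25 on the log2 scale (2.45-fold; edgeR adjusted p = 0.00917). Trim30a was lower, at -0.96 ± 0.26 (edgeR adjusted p = 0.0432), with its reads split as above. So was Trim30b, at -4.91 ± 1.08 (edgeR adjusted p = 0.0178). The summed Trim30 genes, mostly Trim30a and Trim30d, had an edgeR adjusted p of 0.0912. These calls did not hold without WT ISG+ DC replicate 2. The log2 fold changes were then 1.15 for Trim25, -1.01 for Trim30a and -4.87 for Trim30b.

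Of 4 genes of TRIM proteins under other names 3 were tested. Between populations 1 passed, against 3.69% of all genes, and between hosts another did, against 0.552% of all genes. Mefv, which encodes pyrin, the inflammasome protein mutated in familial Mediterranean fever, had 1.2 and 8.39 CPM in CD103+ DC1, 78.2 and 102 CPM in Rag2-/- ISG+ DC and 178 and 175 CPM in WT ISG+ DC. No groups overlapped. Mefv was higher in ISG+ DC than in CD103+ DC1 by 4.34 ± 0.71 on the log2 scale (20.2-fold; edgeR adjusted p = 0.00711), and by 3.42 and 6.24 when replicate 2 or replicate 3 of CD103+ DC1 was left out. Mid1, a microtubule-bound ligase mutated in human Opitz syndrome, had 127 and 283, 141 and 94.2, and 22.9 and 11.4 CPM. It was lower in WT hosts, at -2.78 ± 0.48 on the log2 scale (6.86-fold; edgeR adjusted p = 0.0393), and this call was lost without Rag2-/- ISG+ DC replicate 2 (adjusted p = 0.104) or WT ISG+ DC replicate 2 (adjusted p = 0.0617). Pml, the organizer of PML nuclear bodies, had 207 and 136, 157 and 188, and 92.8 and 85.2 CPM, with a host adjusted p of 0.255 in edgeR. Mid2 had too few counts to be tested.

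Of 24 genes for E2 enzymes, sensors and adaptors that TRIM ligases work with, 2 passed between populations (3.69% of all genes did) and both were higher in ISG+ DC. Ddx58, which encodes RIG-I, the sensor Trim25 acts on, had 70.3 and 39.4 CPM in CD103+ DC1, 388 and 321 CPM in Rag2-/- ISG+ DC and 132 and 106 CPM in WT ISG+ DC. Its difference between populations was 2.69 ± 0.34 on the log2 scale (6.44-fold; edgeR adjusted p = 0.00176). Ifih1, which encodes MDA5, had 128 and 102, 296 and 296, and 151 and 160 CPM, a difference of 1.36 ± 0.26 (edgeR adjusted p = 0.0165). The Ifih1 call was lost when Rag2-/- ISG+ DC replicate 2 (adjusted p = 0.107) or replicate 3 (adjusted p = 0.119) was left out, with the log2 difference still at 1.36. Between hosts 0 of the 24 passed in edgeR, 3 were lower in WT at an unadjusted p under 0.05 (12.5%, against 5.32% of all genes), and DESeq2 called those 3 (Ddx58, Ifih1 and Irf7), against 4.47% of all genes. The WT level of Ddx58 lay under the Rag2-/- ISG+ DC level while that of Trim25 lay over it. The medians of the list were 0.27 between populations and -0.14 between hosts.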

How the data were processed

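The deposited table gives the authors' raw estimated counts from RSEM for each gene and each of 6 libraries; 16.1% of values are not whole. Bowtie 1.2.3, RSEM 1.3.1 and build mm9 are named in the submitters' processing notes, with no role or order; for the annotation, strand setting and filters the sources used here state nothing. Without strand, overlapping genes cannot be separated. The labels name a stranded total RNA kit in the protocol and polyA RNA as molecule.

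Counts were rounded and tested with edgeR 4.0.16 in R 4.3.3 (filterByExpr, TMM, 1 quasi-likelihood fit over all 6 libraries, two-sided, Benjamini-Hochberg over 13223 genes, threshold 0.05). SE came from the F statistic. Limits for genes at 0 use 3 counts and cover counting error only. DESeq2 1.42.0, other filters and scalings, 2 groups only, a replicate block, each library left out and near copies summed were alternatives; the last, and the contrast of WT ISG+ DC with CD103+ DC1, were added after the data were seen. Before use, the fit was run on counts simulated from the spread of these same libraries. No changes were placed in genes of a few CPM, so the run does not vouch for those. Members and lists were chosen with earlier results of these data known. Members named were the 6 with the smallest p in each comparison, the 5 with the highest mean CPM and a set fixed by role; all others were named after their values were seen.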

Additional observations from a re-analysis of the deposited data

How the results depend on the processing

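Calls of TRIM members were few, and their number moved with the method. Without a filter on low counts, edgeR called 3, 3 and 6 members between populations, between hosts and in the contrast of WT ISG+ DC with CD103+ DC1, and 1087, 555 and 1890 genes in all. With DESeq2 the members were 1, 3 and 8 and the genes 1078, 545 and 2082. Fits of 2 groups only called 0, 1 (Trim34a) and 1 (Trim25) members and 297, 444 and 683 genes; there Trim30b (-4.92) and Trim30a (-0.97) were not called in the third contrast, nor Ifih1 between populations (1.36, adjusted p = 0.0541 in edgeR). A filter on summed counts gave 159 genes between hosts, and with near copies summed 1 member was called in the third contrast. DESeq2's scaling changed no count by over 1.5 times.

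Leaving out each library in turn gave 0 to 4 members between populations, 0 to 1 between hosts and 0 to 7 in the third contrast, and 278 to 2068, 27 to 198 and 837 to 2754 genes. The 4 were Trim25, Trim44, Trim67 and Trim8, without CD103+ DC1 replicate 2; the 7 were in the same setting. An arm left with 1 library is assumed to vary like the others. Between populations Trim30a and Trim30d changed sign without CD103+ DC1 replicate 2 (0.02 and 0.01) or Rag2-/- ISG+ DC replicate 3 (0.056 and 0.17), over ranges of -0.38 to 0.056 and -0.38 to 0.17, and Trim67 without CD103+ DC1 replicate 3, over a range of -4.47 to 2.75. Between hosts Trim35 changed sign without Rag2-/- ISG+ DC replicate 3 (0.11) or WT ISG+ DC replicate 1 (0.02), over a range of -0.17 to 0.11. In the third contrast Trim34b came to 0 without WT ISG+ DC replicate 2 and up to 11.47 otherwise, fitted against a group at 0 and so no measured size, and Trim30a was not called without WT ISG+ DC replicate 1 (-0.91). Median log2 fold changes of all members stayed under 0, from -0.43 to -0.16 between populations and -0.32 to -0.05 between hosts. Those of the interferon-linked members ran from -0.16 to 0.27 and from -0.73 to -0.41, and those of the innate regulators (-0.28 to 0.02) and the TIF1 group (-0.34 to 0.12) crossed 0 between hosts. The causes were not tested.

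With the replicate block, 0 members and 715 genes were called between populations. The deviations of same-numbered libraries had a correlation of 0.00606 over all genes and 0.102 over the TRIM members tested, with only 2 pairs, so the numbers are not shown to pair the samples. No paired analysis was possible for the other contrasts because their groups share fewer than 2 numbers. With 2 libraries a group, an unpassed test does not show equal levels, least of all for members of a few CPM.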
